A study of Homo sapiens with 4 samples.

Results

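The genes described here were 32 genes of sterol and fatty acid synthesis and of its control by the sterol regulatory element-binding proteins (SREBPs), of 58243 genes in the deposited files. They were listed by name, as genes of a program that is lowered in the liver when miR-122 is blocked. The rule used no value measured here, although earlier results of these data were known when the list was made. Symbols were matched to the Ensembl gene identifiers of the files, and all 32 were found. For each gene the library with miR-122 was compared with the library with the control RNA, and the libraries with miR-1 and miR-124 were used for comparison.

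RNA-seq was carried out on 293T cells, a human embryonic kidney line, that had received either a control RNA or a synthetic mimic of miR-1, miR-122, or miR-124. The labels give the time of RNA isolation as 48 h after transfection in all 4 conditions, whereas the methods of the study give a shorter time. Each condition had 1 library, labelled as overexpression for the mimics and as negative control for the control RNA, so no spread between replicates could be measured and no p-value was calculated. The libraries differed in depth, with 9452232 reads behind the miR-1 values, 6624306 behind those of the control RNA, 6465436 for miR-124, and 5887055 for miR-122. Of the 293T markers, the epithelial genes KRT8 and KRT18 were at 26.5 and 97.5 FPKM (fragments per kilobase of gene, scaled to the reads of the library) in the control library, and 5 of the 7 markers had at least 200 reads over the 4 libraries, while the kidney genes PAX2 and EYA1 had fewer. Each of the 6 hepatocyte markers looked at, albumin among them, was at 0 in the miR-122 library and at most 0.395 FPKM elsewhere.

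Cholesterol is made from acetyl-CoA through mevalonate, farnesyl diphosphate, squalene, and lanosterol. SREBPs are transcription factors that are made as membrane proteins of the endoplasmic reticulum. When sterols are scarce, the escort protein SCAP carries them to the Golgi, where a pair of proteases releases the part that enters the nucleus and turns on genes of sterol and fatty acid synthesis. When sterols are abundant, INSIG proteins hold SCAP back. miR-122 is very abundant in hepatocytes, and blocking it in the liver lowers plasma cholesterol and mRNAs of this pathway.

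The mature miRNAs are shown because matches to their seeds (bases 2 to 8, in capitals) were searched in the genes. RefSeq places the miR-122 sequence in MIR122, at chr18:58451088-58451109 on the plus strand of GRCh38.p14. The miR-1 sequence is found at 2 places, in MIR1-1 at chr20:62554351-62554372 on the plus strand and in MIR1-2 at chr18:21829015-21829036 on the minus strand.
hsa-miR-122-5p: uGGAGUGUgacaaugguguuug
hsa-miR-1-3p: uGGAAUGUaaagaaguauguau

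In the longest annotated 3′ UTR (untranslated region) of each gene, 4 of the 31 members with at least 200 reads held a match of 7 letters to the miR-122 seed, and none held the 8mer ACACTCCA. Of these matches, 7mer-m8 is ACACTCC without a following A, and 7mer-A1 is CACTCCA without the preceding A. The 4 sites are printed with the match in capitals, as DNA of the mRNA strand, and all lie in the 3′ UTR. MVK has its site at chr12:109595152-109595173 on the plus strand of GRCh38, AACS at chr12:125142529-125142550 on the plus strand, SC5D at chr11:121312690-121312711 on the plus strand, and FASN at chr17:82079108-82079129 on the minus strand.
MVK, 7mer-m8: gtggctgtggcatcACACTCCt
AACS, 7mer-m8: tgctgaagacagacACACTCCt
SC5D, 7mer-A1: ataattgcactactgCACTCCA
FASN, 7mer-A1: cctgccaccggaggtCACTCCA

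A miR-122 match of this kind was held by 12.9% of the members and by 28.7% of all 11246 genes with at least 200 reads and an annotated 3′ UTR. For miR-1 the shares were 25.8% of the members and 27.1% of all genes, and for miR-124 they were 29.0% and 30.0%. Of the 3881 CACTCCA sites in the 3′ UTRs of all these genes, 30.9% were followed by the same letters, GCCTGGG. The site of SC5D was followed by CGCTGGG. Such sites were kept in the shares, which also take no account of 3′ UTR length. ELOVL6 was the member with an 8mer for miR-1, ACATTCCA. Its site lies at chr4:110048534-110048555 on the minus strand of GRCh38, in the 3′ UTR.
ELOVL6, 8mer for miR-1: cctgctgccagttaACATTCCA

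With miR-122, the sterol and fatty acid genes as a group stayed close to the control. Among the 31 members with at least 200 reads, the median log2 ratio of FPKM to the control library was −0.01, against −0.02 over 12741 genes. A value at least 25% above the control, taken as higher, was found for 2 members (6.45%), SREBF1 and TM7SF2, while 8.06% of all genes were that much higher. A ratio of at most 0.8, the same fold in the other direction and taken as lower, was found for 2 members (6.45%), MBTPS2 and SC5D, while 12.5% of all genes were that much lower. Just inside these limits, MSMO1 had a ratio of 1.23 and ELOVL6 a ratio of 0.803. Both shares rest on 2 members and are not read as a difference from genes in general. The median of genes in general was 1041 reads, lower than the members' 1862. In RNA from a whole culture, a change in all cells and a larger change in the transfected cells alone cannot be told apart.

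**Figure D1:**
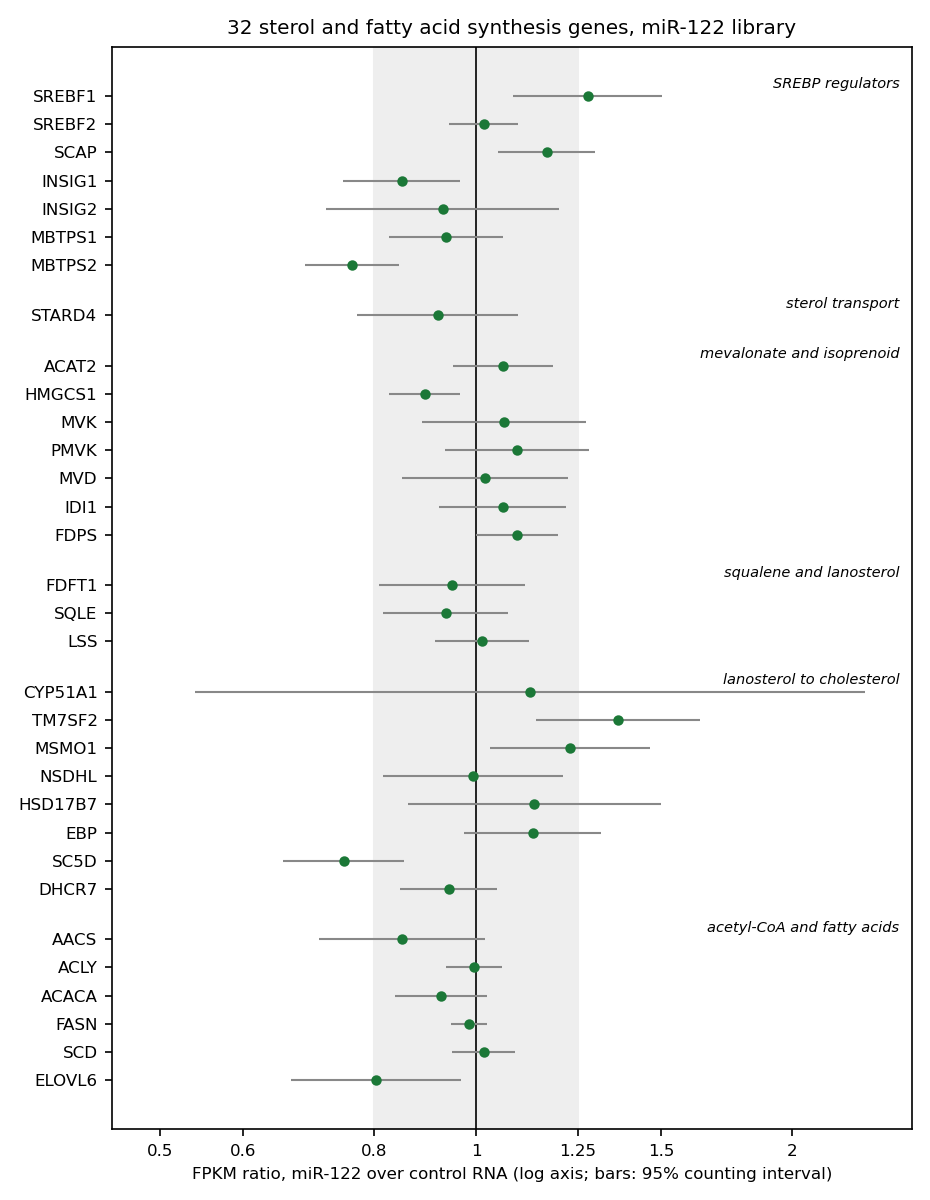
FPKM ratio of the miR-122 library to the control RNA library (log axis) for each of the 32 genes, grouped by role, with its 95% counting interval; the grey band marks ratios from 0.8 to 25% above 1. SREBF1 and TM7SF2 lie to the right of the band and MBTPS2 and SC5D to its left, while CYP51A1, with 64 reads in all, has the widest interval.

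The 95% intervals in the text are exact Clopper-Pearson intervals of a gene's share of reads between 2 libraries, rescaled by depth, and cover counting error only. By them, 4 members (12.9%) lay above 1, which were SREBF1, SCAP, TM7SF2, and MSMO1, against 13.4% of all genes. In the other direction, 5 members (16.1%) lay below 1, which were INSIG1, MBTPS2, HMGCS1, SC5D, and ELOVL6, against 16.7% of all genes. The median member had 1862 reads over the 4 libraries and an interval from 87.2% to 115% of its ratio, so that a change under about this size was not detectable at this depth.

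**Figure D2:**
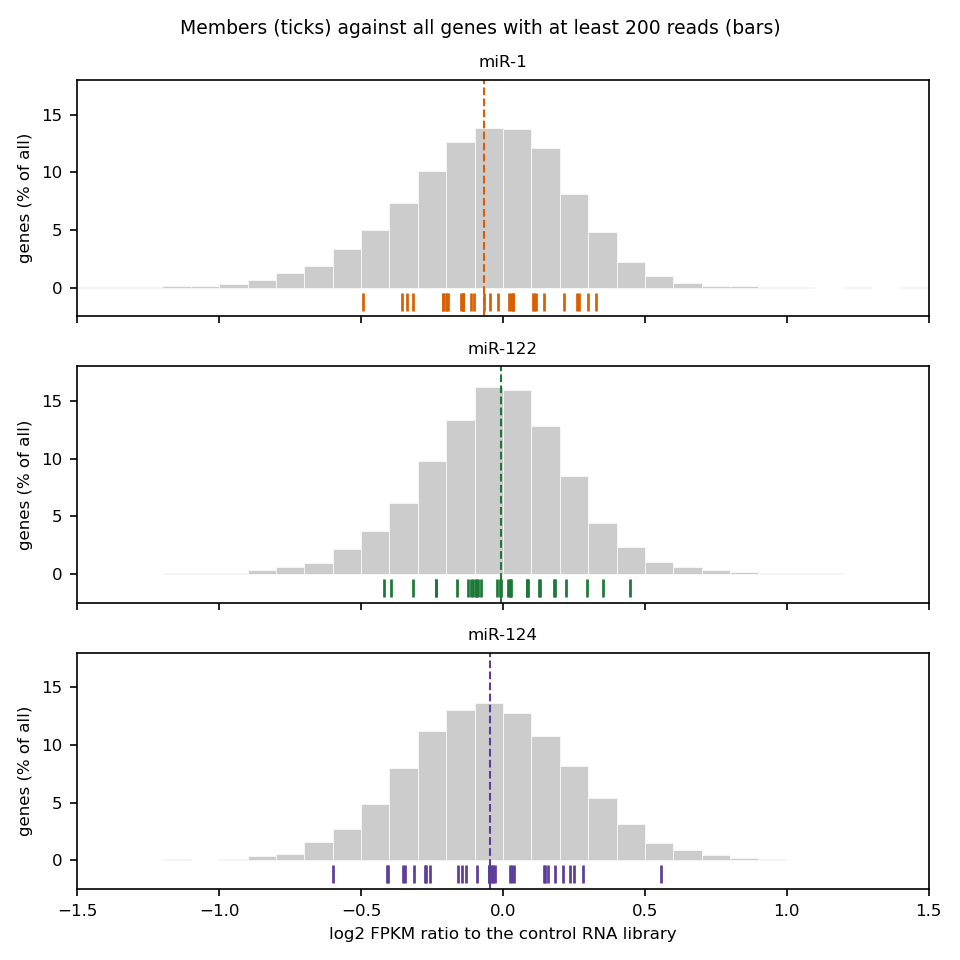
Log2 FPKM ratio to the control RNA library for all genes with at least 200 reads (grey bars, % of all genes in bins 0.1 wide) and for the 31 members (ticks below 0), with the members' median as a dashed line. In each of the 3 mimic libraries the ticks fall within the bulk of the grey bars, and the miR-122 median lies at −0.01.

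The regulators of the pathway differed in direction with miR-122. SREBF1, which encodes the SREBP that mainly drives fatty acid genes, was at 1.60 FPKM in the control library and 1.93, 2.04, and 2.35 FPKM with miR-1, miR-122, and miR-124. It was lowest in the control library, and its ratio was 1.28 (1.08 to 1.5) for miR-122, 1.21 (1.04 to 1.40) for miR-1, and 1.47 (1.26 to 1.72) for miR-124. SREBF2, which encodes the SREBP that mainly drives sterol genes, was at 2.98, 2.70, 3.03, and 2.93 FPKM in the same order of libraries, a ratio of 1.02 (0.943 to 1.10) for miR-122. The interval of SREBF2 for miR-122 included 1 and overlapped the lower end of that of SREBF1. SREBF1 was higher than the control with each mimic. Against the mean of the other 2 mimics, its log2 ratio for miR-122 was −0.07, turned in direction. SREBF1 spans chr17:17810399-17837002 on the minus strand of GRCh38 and overlaps RAI1 on the opposite strand by 1055 bases. Whether the counting used strand is not given in the sources used here, and RAI1 itself had a ratio of 0.934 (0.827 to 1.05) for miR-122.

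SCAP was at 1.62, 1.65, 1.89, and 1.92 FPKM with the control RNA, miR-1, miR-122, and miR-124, a ratio of 1.17 (1.05 to 1.3) for miR-122. Of the retention proteins, INSIG1 was at 6.71, 4.76, 5.70, and 6.49 FPKM in this order, so that it was lowest with miR-1. Its ratio was 0.849 (0.746 to 0.966) for miR-122 and 0.710 (0.630 to 0.80) for miR-1, the lowest of the members with at least 200 reads for miR-1. INSIG2 had a ratio of 0.930 (0.719 to 1.2) for miR-122. INSIG1 is itself a well-known SREBP target, and it did not share the direction of SREBF1.

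The proteases that release SREBPs are encoded by MBTPS1 and MBTPS2. MBTPS2 was at 3.04 FPKM in the control library and 2.62, 2.31, and 2.39 FPKM with miR-1, miR-122, and miR-124, which makes the control library the highest. Its ratio was 0.762 (0.687 to 0.844) for miR-122, 0.863 (0.791 to 0.943) for miR-1, and 0.787 (0.712 to 0.869) for miR-124, without a miR-122 match in its 3′ UTR. MBTPS2 spans chrX:21839617-21885423 on the plus strand of GRCh38, and YY2, a gene lying within it on the same strand, had a ratio of 0.709 (0.502 to 0.996) for miR-122 from 316 reads over the 4 libraries. MBTPS1 had a ratio of 0.936 (0.826 to 1.06) for miR-122 and 0.805 (0.709 to 0.914) for miR-124. STARD4, which moves cholesterol between membranes and is also driven by SREBPs, had a ratio of 0.919 (0.770 to 1.10) for miR-122 and 0.830 (0.695 to 0.989) for miR-124.

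The 7 genes from acetyl-CoA to farnesyl diphosphate all stayed between 0.893 and 1.09 with miR-122, and 6 of them were above 1. ACAT2, which joins acetyl-CoA units, had a ratio of 1.06 (0.95 to 1.18). HMGCS1, the HMG-CoA synthase and a classical SREBP target, was the gene of this group below 1, at 9.22, 8.05, 8.23, and 6.96 FPKM with the control RNA, miR-1, miR-122, and miR-124. Its ratio was 0.893 (0.826 to 0.965) for miR-122 and 0.755 (0.697 to 0.817) for miR-124, so that its value was lowest with miR-124. The mevalonate kinase gene MVK, which carries the 7mer-m8 shown above, was at 1.55, 1.68, 1.65, and 1.57 FPKM, a ratio of 1.06 (0.888 to 1.27) for miR-122. The counting interval of MVK included 1. Of the 7 genes, 6 were above 1 with miR-1 too, and 4 with miR-124. All genes were split at the median GC content of the 3′ UTR. With miR-122, 1763 of the 5622 at or below it were above 1, and 3381 of the 5623 above it. The count of 6 is not read as particular to miR-122 or to these genes.

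For the other enzymes of this stretch, every interval with miR-122 included 1. PMVK and MVD, which act on mevalonate after MVK, had ratios of 1.09 (0.934 to 1.28) and 1.02 (0.850 to 1.22) for miR-122. IDI1, the isopentenyl diphosphate isomerase, and FDPS, the farnesyl diphosphate synthase, had ratios of 1.06 (0.922 to 1.22) and 1.09 (0.999 to 1.2). FDPS has 8 annotated pseudogene copies and IDI1 has 3, and reads of near-identical copies could have been split or lost in the counting. FDPS also shares 3804 bases with RUSC1-AS1 on the opposite strand, which had a ratio of 1.28 (1.16 to 1.41) for miR-122. With miR-1, PMVK had a ratio of 1.16 (1.01 to 1.34) and FDPS one of 1.10 (1.02 to 1.2). For miR-1, ACAT2 had a ratio of 1.2 (1.09 to 1.32), the highest of these 7 genes, and it overlaps TCP1 on the opposite strand, which had a ratio of 1.16 (1.10 to 1.23).

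In the middle of the pathway, FDFT1 makes squalene, SQLE oxidizes it, and LSS closes it to lanosterol. With miR-122 their ratios were 0.949 (0.809 to 1.11), 0.935 (0.815 to 1.07), and 1.01 (0.914 to 1.12), with each interval including 1. SQLE, often named as the second control point of sterol synthesis, was at 2.97 FPKM in the control library and 2.58, 2.78, and 2.46 FPKM with miR-1, miR-122, and miR-124. The control library thus had the highest SQLE value of the 4, and the ratio for miR-124 was 0.828 (0.721 to 0.95).

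Both the highest and the lowest ratio with miR-122 belonged to enzymes that turn lanosterol into cholesterol. TM7SF2, a sterol reductase, was at 7.52 FPKM in the control library and 9.44, 10.3, and 8.86 FPKM with miR-1, miR-122, and miR-124. Its ratio of 1.36 (1.14 to 1.63) was the highest of the members for miR-122, and with 1.26 (1.06 to 1.48) it was also the highest for miR-1, again with the control library as the lowest of the 4. TM7SF2 spans chr11:65111845-65116384 on the plus strand of GRCh38, shares 18 bases with VPS51 on the same strand, and holds a miR-124 match, not one for miR-122. SC5D, a sterol desaturase, went the other way, at 5.21 FPKM in the control library and 4.85, 3.90, and 4.09 FPKM with miR-1, miR-122, and miR-124. Its ratio was 0.748 (0.655 to 0.854) for miR-122, the lowest of the members, and 0.783 (0.689 to 0.890) for miR-124. SC5D spans chr11:121292681-121313410 on the plus strand of GRCh38, and its miR-122 match starts 5196 bases into a 3′ UTR of 5901 bases, counted from the stop codon. SC5D holds no miR-124 match, and the part of its miR-122 match in its value was not tested. Against the mean of the other 2 mimics, the log2 ratio for miR-122 was −0.20 for SC5D, −0.12 for MBTPS2, and 0.16 for TM7SF2, each inside the limits, which are 0.32 either way on this scale.

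The methylsterol oxidase MSMO1 is also driven by SREBPs, and it was the member whose ratio differed in sign between miR-122 and miR-1 by intervals that both left out 1. It was at 2.43 FPKM in the control library and 1.92, 2.98, and 2.35 FPKM with miR-1, miR-122, and miR-124, the highest value being that with miR-122. Its ratio to the control was 1.23 (1.03 to 1.46) for miR-122, 0.791 (0.664 to 0.941) for miR-1, and 0.967 (0.806 to 1.16) for miR-124. HSD17B7, which acts in the same removal of methyl groups, was likewise highest with miR-122 but at a lower depth, with 0.730, 0.631, 0.830, and 0.483 FPKM, and 416 reads in all. Its ratio for miR-122 was 1.14 (0.861 to 1.5), with an interval that included 1, and its ratio of 0.661 (0.481 to 0.903) for miR-124 was the lowest of the members for that mimic. Set directly against the miR-1 library, the miR-122 library had a ratio of 1.55 (1.31 to 1.84) for MSMO1 and 1.31 (1.01 to 1.71) for HSD17B7. Set against miR-124, these ratios were 1.27 (1.06 to 1.52) and 1.72 (1.26 to 2.36). Over the 31 members with at least 200 reads, the interval lay above 1 for 7 and below 1 for 3 against miR-1, the 3 being MBTPS2, ACAT2, and SC5D. Against miR-124 it lay above 1 for 6 and below 1 for 4, which were NSDHL, DHCR7, AACS, and FASN. Those furthest below were SC5D against miR-1, at 0.804 (0.708 to 0.912), and AACS against miR-124, at 0.767 (0.641 to 0.917). This comparison of mimics was chosen after the values were seen. The same shares over all genes were not counted for it, so these counts are not read as a trait of the members. HSD17B7 has annotated pseudogene copies, as have CYP51A1, AACS, and SCD, and their part in the values was not tested.

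NSDHL, the dehydrogenase of the same step, had a ratio of 0.993 (0.815 to 1.21) for miR-122 and so did not follow MSMO1. EBP, a sterol isomerase, and DHCR7, which makes cholesterol in the last step of 1 branch, had ratios of 1.13 (0.974 to 1.32) and 0.941 (0.846 to 1.05). The gene of the lanosterol demethylase, CYP51A1, was at 0.0833, 0.0584, 0.0938, and 0.0653 FPKM, with 17, 17, 17, and 13 reads in the 4 libraries. Its ratio of 1.13 (0.540 to 2.34) for miR-122 says little at this depth. Its annotated span overlaps AKAP9 and CYP51A1-AS1 on the opposite strand, and genes without a symbol on the same strand. CYP51A1 was left out of every count over members with at least 200 reads.

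**Figure D3:**
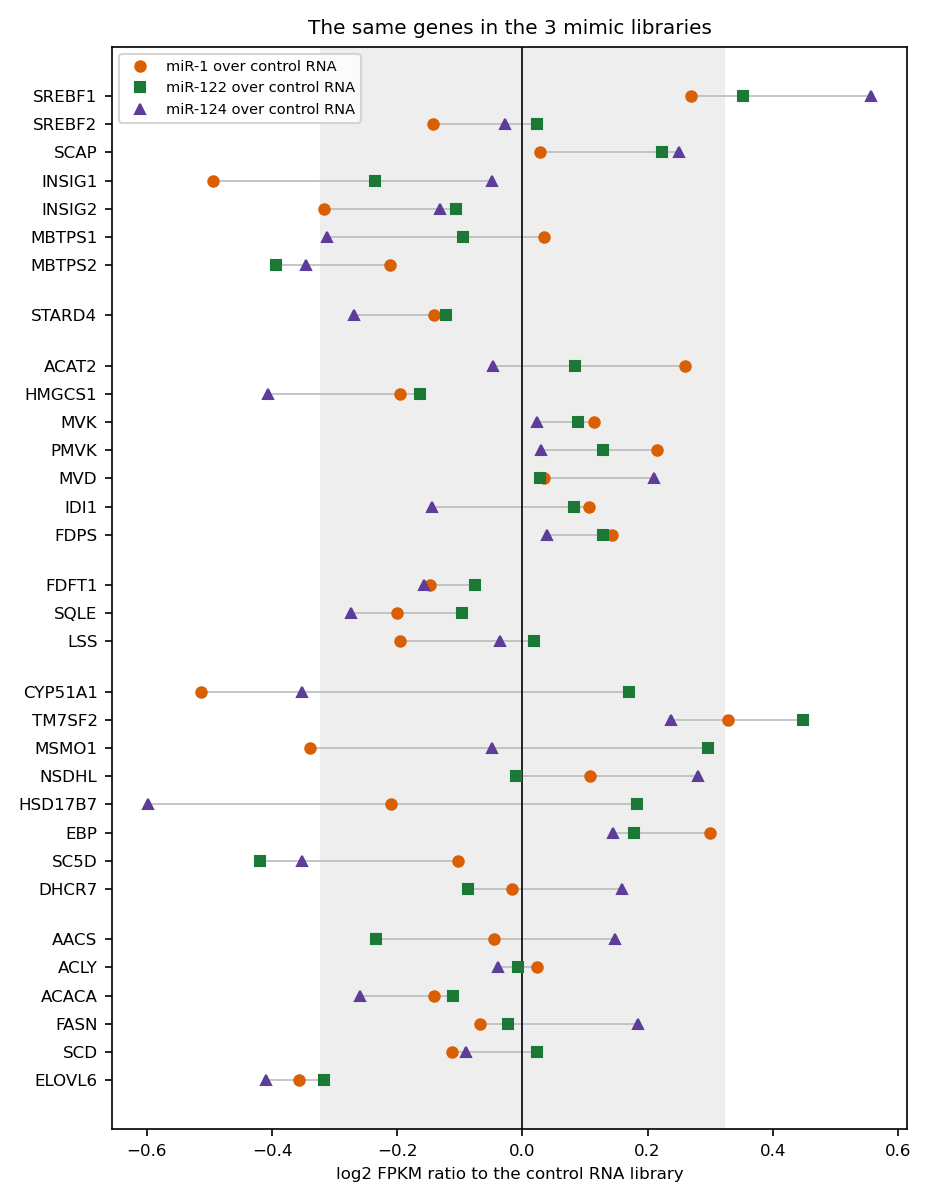
Log2 FPKM ratio to the control RNA library for each of the 32 genes with miR-1 (circles), miR-122 (squares), and miR-124 (triangles), with a line from the lowest to the highest of the 3; the grey band has the same limits, 0.8 and 25% above the control. SREBF2, LSS, CYP51A1, MSMO1, HSD17B7, and SCD have their squares to the right of 0 and their other symbols to the left, while SREBF1 and TM7SF2 have all 3 symbols to the right and SC5D and MBTPS2 all 3 to the left.

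The genes that supply acetyl-CoA and make fatty acids included the most abundant members, FASN, ACLY, and SCD, whose ratios for miR-122 lay between 0.984 and 1.02. FASN, the fatty acid synthase, was at 41.0 FPKM in the control library and 39.1, 40.4, and 46.6 FPKM with miR-1, miR-122, and miR-124. With 23604 reads it was also the most precise member, and its ratio for miR-122 was 0.984 (0.947 to 1.02) beside the 7mer-A1 in its 3′ UTR. The ratio for miR-124 was 1.14 (1.10 to 1.18). ACLY, which makes acetyl-CoA from citrate, had a ratio of 0.995 (0.936 to 1.06) for miR-122, and SCD, the stearoyl-CoA desaturase, had one of 1.02 (0.948 to 1.09). These 3 enzymes had the most reads of all members, and each interval included 1.

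ACACA, the acetyl-CoA carboxylase, had a ratio of 0.926 (0.837 to 1.02) for miR-122. AACS, which activates ketone bodies for lipid synthesis and carries a 7mer-m8, was at 0.546, 0.529, 0.464, and 0.605 FPKM with the control RNA, miR-1, miR-122, and miR-124. It was lowest with miR-122, at a ratio of 0.850 (0.708 to 1.02), and the interval included 1. ELOVL6, an elongase of fatty acids, was at 0.275, 0.215, 0.220, and 0.207 FPKM, and thus lower with every mimic than with the control RNA. Its ratio was 0.781 (0.662 to 0.922) for miR-1, for which it holds the 8mer, 0.803 (0.666 to 0.966) for miR-122, and 0.753 (0.626 to 0.905) for miR-124. All 3 ratios share the control library, and the part of the 8mer was not tested.

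Genes with a miR-122 match had a slightly lower median ratio with miR-122 than genes without one. The part of 3′ UTR length and GC content in this difference was not tested. Over all genes with at least 200 reads, the median log2 ratio was −0.08 for the 3229 genes with a match, −0.15 for the 457 with an 8mer, and 0.00 for the 8017 without a match. The 4 members with a match had a median of −0.13 and the 27 others 0.02, and the 4 were spread from 0.748 to 1.06 as ratios. For miR-1 and miR-124 the medians of genes with an 8mer were −0.25 and −0.17. For miR-124, 4 members held an 8mer (STARD4, TM7SF2, DHCR7, and SCD), with a median of 0.03.

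The same counts were taken with the other mimics. All 3 comparisons share the control library, so a value that is high or low in that library moves all of them together. For miR-1, 1 member (3.23%), TM7SF2, was at least 25% higher and 3 (9.68%) were lower, which were INSIG1, MSMO1, and ELOVL6, against 7.59% and 18.5% of all genes. For miR-124, 1 member (3.23%) was higher, SREBF1, and 5 (16.1%) were lower, which were HMGCS1, MBTPS2, HSD17B7, SC5D, and ELOVL6, against 10.4% and 16.5% of all genes. The median log2 ratio of the members was −0.07 for miR-1 and −0.05 for miR-124, and that of all genes was −0.05 for each. In all, 22 of the 31 members (71.0%) stayed between these limits with every mimic, compared with 52.2% of all genes, which had fewer reads.

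The members' ratios varied with the base composition of their 3′ UTRs, as did those of genes in general. The GC content of the members' 3′ UTRs ran from 29.0% to 65.2%, with a median of 45.9% against 43.7% for all genes. Across the 31 members, Pearson's r between GC content and log2 ratio was 0.47 for miR-122, 0.47 for miR-1, and 0.68 for miR-124. Across all genes it was 0.34, 0.24, and 0.61 in this order (n = 11244 to 11245). Genes are not independent replicates, and all of the points share the same pairs of libraries. The 13 members at or below the median GC content of all genes had a median log2 ratio of −0.11 for miR-122, and the 18 above it had 0.02. All genes on the same sides had medians of −0.11 and 0.06. Both of the members lower with miR-122 were among the 13, and both of those higher were among the 18. Of all genes, 1001 of the 5622 at or below the median GC content were lower, and 369 of the 5623 above it. Those higher were 218 and 579 in the same order. For miR-124, each of the 13 was below 1, at a median of −0.27, and the 18 others had a median of 0.09. Of the 5621 genes at or below the median GC content, 1035 were above 1 for miR-124. The medians of all genes on the same sides were −0.20 and 0.10. This split was chosen after the values were seen.

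**Figure D4:**
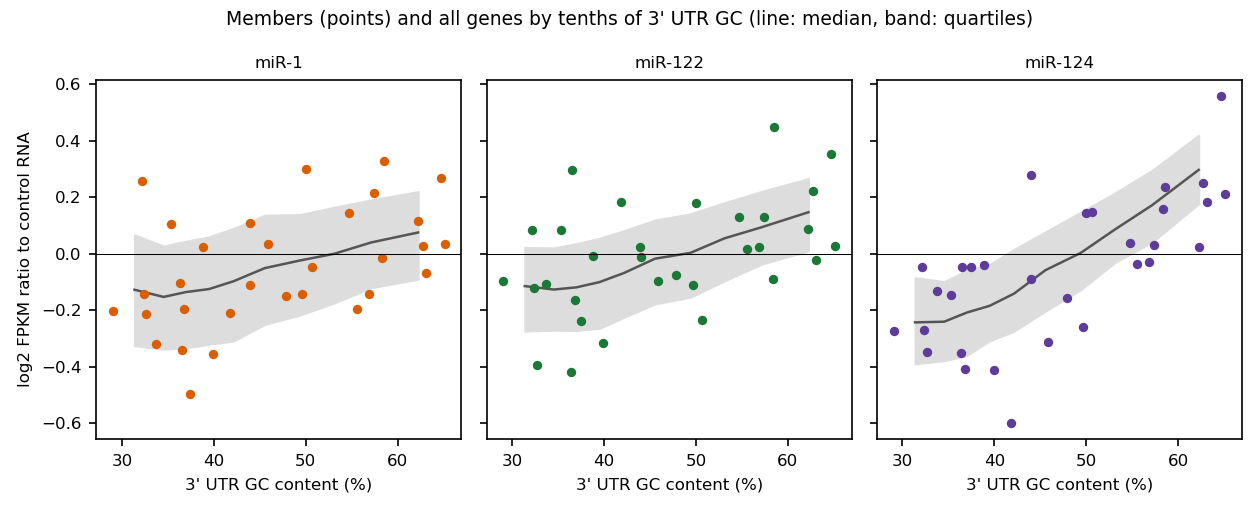
Log2 FPKM ratio to the control RNA library against the GC content of the 3′ UTR (%) for the 31 members (points), with the median (line) and quartiles (band) of all genes in 10 groups of equal size by GC content. Members with low GC content lie mostly below 0 and those with high GC content mostly above it, most clearly for miR-124, along the line of all genes.

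When the median of all genes of like GC content (in 10 groups of equal size) was subtracted, SREBF1 had a log2 ratio of 0.21 for miR-122, MBTPS2 of −0.28, and SC5D of −0.30, each inside the limits. TM7SF2 stayed outside them at 0.35, and MSMO1 passed them at 0.42. The other genes of the reactions after lanosterol were spread on both sides of 0, with HSD17B7 at 0.25, EBP at 0.18, NSDHL at 0.0069, and DHCR7 at −0.18.

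Levels between genes were compared as reads per kilobase of annotated exon, scaled to the reads of the library, since the deposited FPKM divide by a length with introns. On this scale FASN was the most abundant member in the control library, at 88.0, followed by ACLY at 64.2, SCD at 49.4, and PMVK at 48.7. SREBF2, at 27.5, was above SREBF1, at 5.17. The lowest on this scale were HSD17B7 at 3.38, AACS at 2.65, and CYP51A1 at 0.615. The scale joins the annotated exons of all transcripts, 16039 bases for AACS, so genes with many annotated exons can read low. The part of overlapping genes in the CYP51A1 value was not tested. Between the most and the least abundant gene the level differed far more than any gene differed between libraries.

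**Figure D5:**
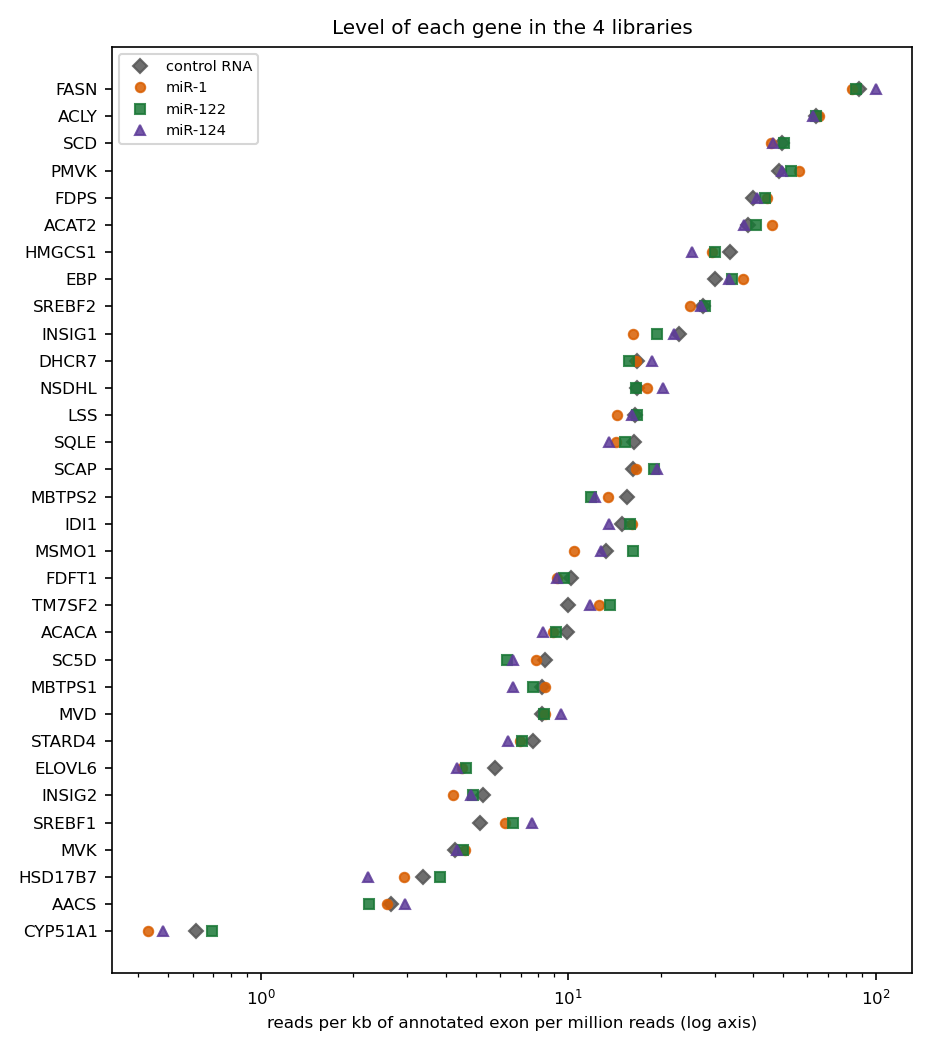
Reads per kilobase of annotated exon, scaled to the library (log axis), for each of the 32 genes in the control RNA (diamonds), miR-1 (circles), miR-122 (squares), and miR-124 (triangles) libraries, ordered by the control library. The 4 symbols of a gene lie close together on a scale that runs from 0.431 for CYP51A1 with miR-1 up to FASN, which was highest with miR-124.

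The promoters were searched for sequences through which this program is known to be driven. RefSeq promoters, from 250 bases before to 50 bases after the start site, were matched for 28 members. The sterol regulatory element core TCACNCCAC, searched on both strands, was found in 1 of the 28 (3.57%), SREBF2, and in 1.15% of 27305 promoters. Only this form of the core was searched, so variant elements, or elements outside the window, would be missed. It is shown with the core in capitals, and lies on the plus strand at chr22:41832964-41832988 of GRCh38.p14, with its first base at −133 from the start site.
SREBF2 promoter: acgcgccaTCACCCCACgcaccgct
The letters CCAAT, the box bound by NF-Y, a partner of SREBPs, were found on either strand in 17 of the 28 promoters (60.7%) and in 35.7% of all promoters. The 17 included SREBF2, INSIG1, HMGCS1, FDPS, MSMO1, HSD17B7, and SC5D, which lay on both sides of 1 with miR-122. The promoters of ACAT2, FDFT1, SQLE, and FASN were not in the table.

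Other genes of sterol balance were read from lists by function. For each list, the shares of all genes past the limits with miR-122 were 8.06% higher and 12.5% lower. Among 14 further SREBP targets, 1 was at least 25% higher with miR-122 and 1 lower. ME1, the malic enzyme that supplies NADPH, was at 0.116, 0.105, 0.153, and 0.108 FPKM with the control RNA, miR-1, miR-122, and miR-124, a ratio of 1.32 (1.07 to 1.64) for miR-122. ACSL1, which activates fatty acids, was at 0.532, 0.527, 0.415, and 0.497 FPKM, a ratio of 0.780 (0.639 to 0.95). The list of 14 had a median log2 ratio of −0.06 with miR-122, with 4 genes above the control and 10 below it. With miR-1, 2 were above and 12 below, at a median of −0.13. With miR-124, 3 were above and 11 below, at a median of −0.17. The medians of all genes were −0.02 for miR-122 and −0.05 for each of the others.

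Of 6 genes of sterol efflux and the LXR receptors with enough reads, NR1H2 (LXR beta) was higher and MYLIP lower. NR1H2 was at 0.665 FPKM with the control RNA and at 0.879, 0.930, and 0.818 with miR-1, miR-122, and miR-124, a ratio of 1.40 (1.17 to 1.67) for miR-122. MYLIP, a ubiquitin ligase gene turned on by LXR, was at 0.647, 0.553, 0.400, and 0.590 FPKM, a ratio of 0.618 (0.419 to 0.899) from 300 reads in all. NR1H2 was lowest in the control library, as SREBF1 and TM7SF2 were, whereas MYLIP was lowest with miR-122.

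None of the 10 genes of sterol-regulated degradation passed either limit with miR-122. Of the 6 subunits of AMPK, the kinase that restrains sterol and fatty acid synthesis, PRKAB2 was lower, at a ratio of 0.696 (0.570 to 0.849). With miR-124, 4 of these 6 were lower (PRKAA1, PRKAA2, PRKAB2, and PRKAG2), against 16.5% of all genes. PRKAA1 and PRKAG2 hold 1 miR-124 match each and PRKAA2 holds 2, whereas PRKAB1, PRKAB2, and PRKAG1 hold none. The GC content of the 3′ UTRs of the 4 lower genes ran from 32.1% to 39.9%. The part of GC content and of the matches in these values was not tested. Among 8 genes of cholesterol transport and esterification, SOAT1 and NCEH1 were lower with miR-122, against 12.5% of all genes, and none was higher, against 8.06%. SOAT1, which esterifies cholesterol in most tissues and holds 2 miR-122 matches, was at 1.08, 0.951, 0.795, and 0.829 FPKM with the control RNA, miR-1, miR-122, and miR-124, a ratio of 0.739 (0.637 to 0.856). NCEH1, a cholesterol ester hydrolase with 1 match, had a ratio of 0.783 (0.545 to 1.12) from 297 reads. NPC1 and SCARB1 of the same list also hold 1 match each, at ratios of 0.888 (0.759 to 1.04) and 1.13 (1.02 to 1.26). ACSL1, MYLIP, and PRKAB2, the lower genes of the other lists, hold no miR-122 match. The part of the matches in these values was not tested.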

How the data were processed

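RNA-seq of 293T cells was available for 4 conditions with 1 library each, so samples were grouped by their labels and no replicate comparison was made. The authors trimmed single-end reads, aligned them to GRCh38 with HISAT2 2.0.0 after base calling with CASAVA 1.8 (submitters' processing notes), and deposited FPKM. The counting program, its annotation, and its use of strand are not given in the sources used here. Of 58243 gene identifiers, 57532 matched GENCODE release 44.

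Whole reads were recovered from the FPKM with the value of 1 read in each library. The annotated span less 1 base, introns included, gave whole reads (within 0.01) for 62.7% of 32010 genes above 0, and another length did so for most others (99.4% in all). Most members had such another length, within 10% of the span except for SC5D and CYP51A1. Such reads may be wrong by a whole-number factor, which makes their intervals too wide or narrow. The sum of recovered reads was 104% of each divisor. One read per kilobase was worth 0.106 to 0.170 FPKM.

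Ratios were taken between genes above 0.004 FPKM in both libraries without a pseudocount, and genes with at least 200 recovered reads over the 4 libraries served as the background. Every member was named; members at least 25% above the control with miR-122 or below it by the same fold (a ratio of 0.8), with a miR-122 seed match, or at the extremes of the other mimics were given in all 4 libraries, and of other lists the genes past these limits with miR-122 were named. The members and lists were chosen with earlier results of these data known. For miR-124, whose mature sequence was not in the table used, matches to GTGCCTT were counted. The steps were tested on simulated data, with lengths close to the true ones. There the intervals were tested on the simulated reads themselves, not on recovered ones. Recovery at lengths further off, as for SC5D and CYP51A1, was not covered. Software was Python 3.11.15 with pandas 2.3.3, scipy 1.17.1, numpy 2.4.6, and, for figures, matplotlib 3.10.9. Alternatives were a pseudocount of 1, no read filter, the mean of the other 2 mimics as reference, centring, subtraction of the median of genes of like GC content (10 groups), and a limit of 50% above the control or the same fold below.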

Additional observations from a re-analysis of the deposited data

How the results depend on the processing

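No paired analysis was possible because there was 1 library per mimic and 1 control library, and for the same reason no replicate could be left out. The members' median log2 ratio for miR-122 lay between −0.01 and 0.04 under every alternative. With a pseudocount of 1, 1 member was higher with miR-122 and 1 lower, compared with 2.83% and 1.88% of all genes. Against the mean of the other 2 mimics, 2 were higher (MSMO1 and HSD17B7) and 0 lower, compared with 7.23% and 4.88%. After subtraction of the median of genes of like GC content, 2 were higher (TM7SF2 and MSMO1) and 0 lower, compared with 7.19% and 9.31%. At limits of 50% above the control and the same fold below, 0 were higher and 0 lower, compared with 1.47% and 2.50% of all genes. Against the mean of the other 2 mimics, 3 calls changed sign on the log2 scale: SREBF1 with miR-122 to −0.068, TM7SF2 with miR-1 to −0.018, and ELOVL6 with miR-1 to 0.0065. Of the 93 single ratios, 33 moved outside their counting interval with that reference, 23 with the GC groups, 3 with the pseudocount, and 1 with centring. The cause was not tested. Depth limits the less abundant members: CYP51A1 had 64 reads and HSD17B7 416. With 1 culture per condition, the spread between cultures was not measured.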
